A study of Mus musculus with 6 samples.

Results

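The genes described here are 55 mouse genes of the Wnt pathway, chosen by symbol among the 49671 genes of the deposited count table. They comprise 19 Wnt ligands, 10 frizzled receptors, the 2 co-receptors Lrp5 and Lrp6, the 3 alternative receptors Ror1, Ror2 and Ryk, 6 antagonists that bind ligands, 5 secreted proteins grouped as antagonists that bind co-receptors, 4 genes of receptor turnover, the 4 TCF/LEF transcription factors and the 2 feedback targets Axin2 and Nkd1. All 55 were present in the table, and 39 were detected well enough to be tested.

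Wnt proteins are secreted ligands that bind a frizzled receptor together with Lrp5 or Lrp6. In the canonical branch this stabilises beta-catenin, which enters the nucleus and acts with TCF/LEF factors, while other branches run through Ror and Ryk receptors and regulate polarity and movement. Wnt signals act on neural stem cells (NSCs) of the adult brain, and several targets, Axin2 and Nkd1 among them, feed back to restrain the pathway.

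RNA was sequenced from neurospheres, which are floating aggregates of NSCs and progenitors grown with EGF and FGF from the subventricular zone (SVZ) of adult mice, 2 to 4 months of age, on a C57BL6 background. In both groups both copies of Tet3, which encodes a dioxygenase that oxidises 5-methylcytosine, carried loxP sites around an exon. By their labels, as the paper defines them, the 3 Tet3-Gfap cre libraries also carried a heterozygous Cre transgene driven by the Gfap promoter. The 3 Tet3-Gfap control libraries had no Cre by theirs. Deletion could therefore occur only in cells that had expressed Gfap, and each independent culture was started from a pair of animals whose tissue was combined. Library depth was between 29660398 and 35405326 counts. Levels are given as CPM, counts scaled to a common library size, with sizes adjusted by the trimmed mean of M values, and fold changes are cre over control.

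Before any other gene, Tet3 was read in each library. It was at 61.3, 60.5 and 116 CPM in cre 1 to 3, against 114, 136 and 60.3 CPM in control 1 to 3. Cre 1, cre 2 and the library labelled control 3 were low, whereas control 1, control 2 and the library labelled cre 3 were high, so that Tet3 went against the label in 2 of 6 libraries. Counts over the whole gene include exons that remain after deletion. Gfap counts followed the same split, at 3.84, 3.52 and 0.280 CPM in cre 1 to 3, against 0.503, 0.327 and 6.62 CPM in control 1 to 3. The paper describes the Cre transgene as built from a mouse Gfap cassette that keeps the exons of the gene. Gfap counts may therefore include reads from the transgene, which was not tested. Most results below are therefore given for all 6 libraries by their labels and for the 4 libraries numbered 1 and 2. Over all 6 libraries the log2 fold change of Tet3 was -0.38 ± 0.35 (SE), with an adjusted p of 1.00 in edgeR's quasi-likelihood test. The 4 libraries are those in which Tet3 followed the label, so the gene was not tested within them.

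Marker lists described the cells in culture. The summed level of 9 NSC and progenitor markers was 7972 to 8760 CPM in cre libraries and 9261 to 9442 CPM in control libraries, without overlap. Among these markers, Nes overlapped between groups, at 1507 to 1583 CPM in cre libraries and 1501 to 1619 CPM in control libraries. Sox2 overlapped too, at 185 to 198 CPM in cre libraries and 165 to 199 CPM in control libraries. The lower sum in cre libraries thus lay mainly in the other markers of this list, not in Nes or Sox2. The 8 astrocyte markers summed to 842.5 to 1230 CPM in cre libraries and 1000 to 1271 CPM in control libraries, with overlap. The 8 oligodendrocyte-lineage markers summed to 3004 to 3334 CPM in cre libraries and 2660 to 3006 CPM in control libraries, and the 8 neuronal markers to 1027 to 1230 CPM in cre libraries and 1005 to 1402 CPM in control libraries. Nearly all of the neuronal sum was Map2, at 1010.2 to 1215 CPM in cre libraries and 992 to 1381 CPM in control libraries, while Dcx, Tubb3, Rbfox3, Snap25 and Stmn2 each stayed at or below 5.94 CPM. Endothelial and mural markers, 8 genes, summed to 119 to 199 CPM in cre libraries and 141 to 159 CPM in control libraries, but nearly all of this was Cspg4, which is also among the oligodendrocyte-lineage markers, at 112 to 193 CPM in cre libraries and 138 to 155 CPM in control libraries. The 8 ependymal markers summed to 22.6 to 25.5 CPM in cre libraries and 16.6 to 21.0 CPM in control libraries. Most of this was Foxj1, and Tmem212 was at 0 in every library. The 8 choroid plexus markers summed to 1.62 to 3.59 CPM in cre libraries and 1.10 to 8.33 CPM in control libraries, with Folr1 at 0 throughout and Otx2 at 7.77 CPM in the library labelled control 3. Meningeal fibroblast markers, 8 genes, reached 28.4 CPM in cre 1, with Col3a1 at 9.21 CPM there, but lay between 5.10 and 13.4 CPM elsewhere. The 8 microglial markers reached 3.59 CPM in cre 1 and at most 0.772 CPM in the other libraries. In such bulk cultures, fewer cells of a type and less RNA per cell cannot be told apart, and the part of these marker differences in the values below was not tested.

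**Figure D1:**
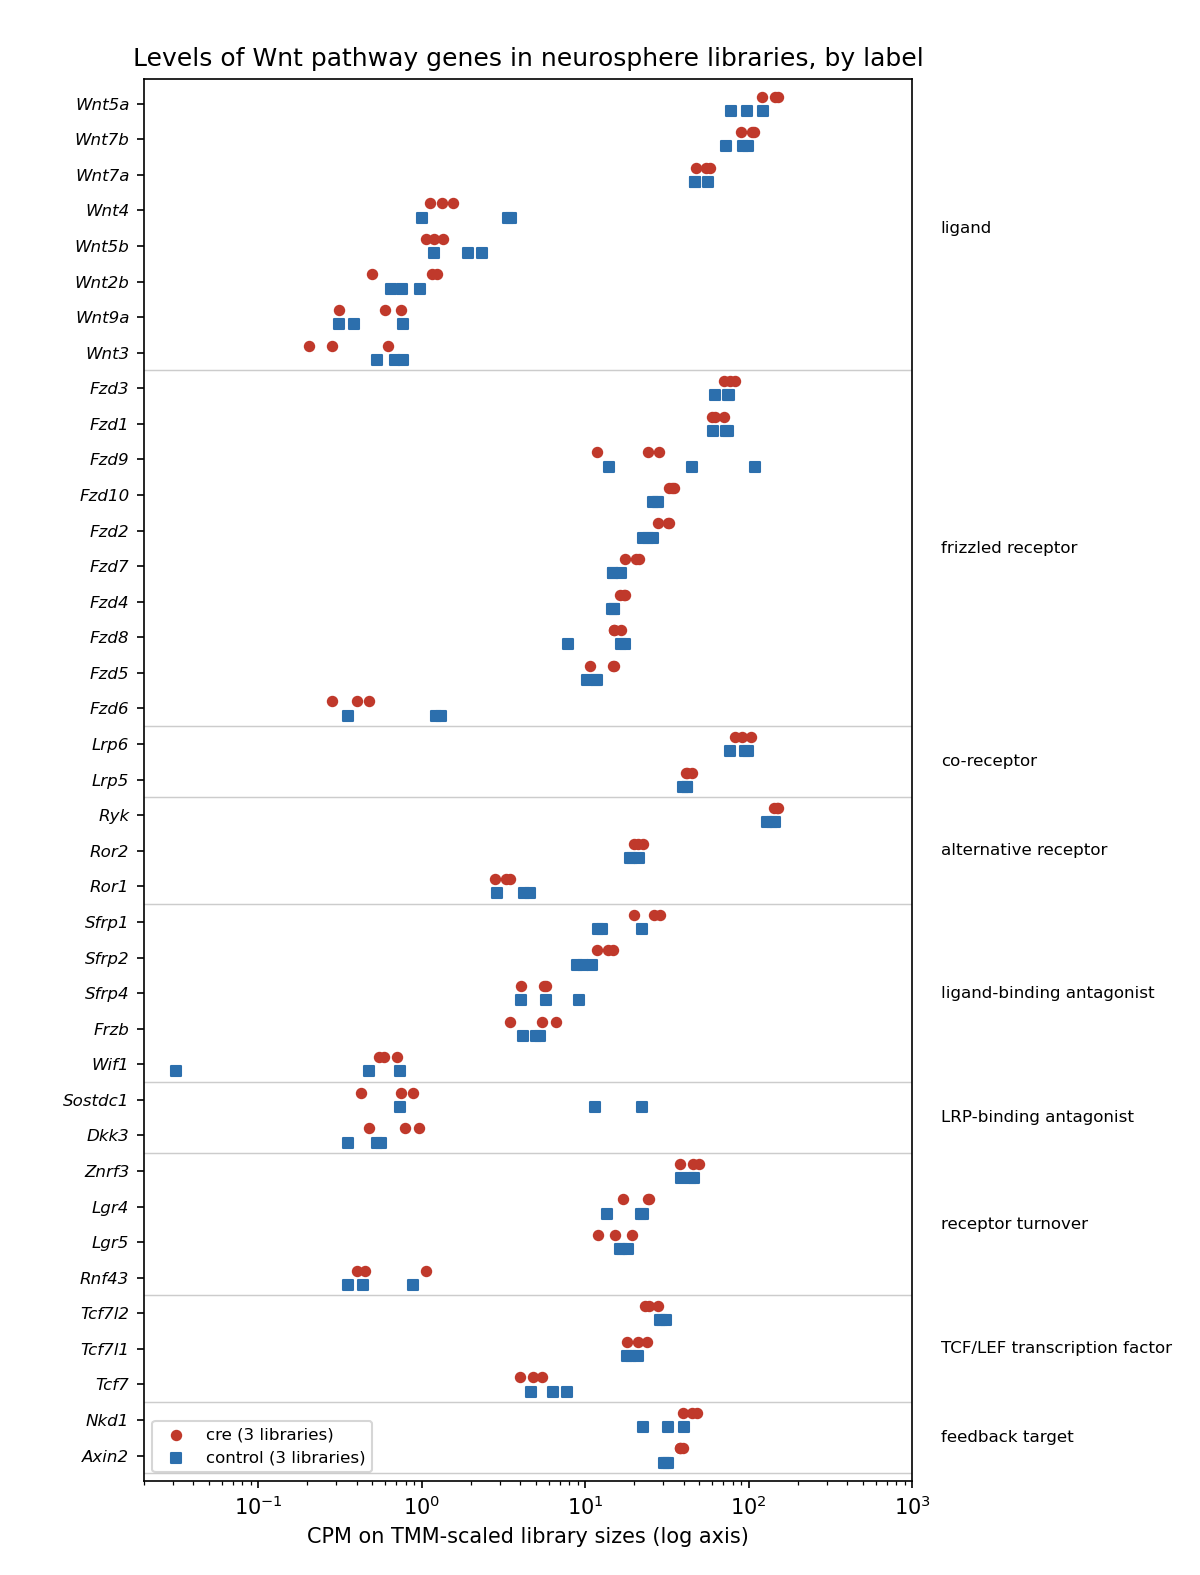
Level of each of the 39 tested Wnt pathway genes in each library, in CPM on a log axis, with genes grouped by role. Red circles stand for the 3 cre libraries and blue squares for the 3 control libraries. Wnt5a, Wnt7b and Wnt7a were the abundant ligands, and Sostdc1 spread from 0.424 to 22.4 CPM.

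Levels of different genes were compared per kilobase of annotated exon, as the mean over the 6 libraries. Among ligands, Wnt7b stood at 19.3 CPM per kb (14.9 to 22.2 across libraries), Wnt7a at 16.3 (14.8 to 18.3) and Wnt5a at 15.2 (10.1 to 19.3), so the ranges of these 3 ligands overlapped. The next ligand, Wnt5b, reached 0.568 CPM per kb, far below all of them. Among receptors, Ryk averaged 31.6 CPM per kb (28.7 to 33.6), Fzd9 17.0 (5.18 to 48.0) and Fzd1 15.9 (14.2 to 17.9). The range of Fzd9 spanned those of Ryk and Fzd1, with its highest value in control 1, and Fzd1 was above Fzd9 in 4 of 6 libraries. Fzd6 was the lowest frizzled at 0.140 CPM per kb. The remaining 7 frizzleds lay between 1.79 CPM per kb for Fzd5 and 9.42 for Fzd10. Lrp6 stood at 6.69 CPM per kb and Lrp5 at 4.31, without overlap between their ranges (5.62 to 7.56 and 4.08 to 4.63).

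No gene passed an adjusted p of 0.05 in edgeR's quasi-likelihood test on all 6 libraries by label (0% of 16916 tested), and 0 of the 39 members did. At an unadjusted p under 0.05, 12 of 39 members (30.8%) were past the threshold, 9 of them higher and 3 lower in cre, against 5% of all genes (2.66% higher and 2.34% lower). The members were chosen with earlier results of these data known, so such shares, here and below, are description only. DESeq2 called 70 genes (0.414%), edgeR's exact test 68 (0.402%), its likelihood-ratio test 51 (0.301%) and limma-voom 0 (0%). Of the members, the exact and likelihood-ratio tests each called 1, Sostdc1, and DESeq2 and limma-voom called 0. In 7 of 39 members (17.9%) the groups did not overlap, 6 with cre higher and 1 with cre lower, against 9.47% of all genes tested (4.81% higher and 4.66% lower). All cre libraries lay above all control libraries for Axin2, Fzd2, Fzd4, Fzd7, Fzd10 and Sfrp2, and below them for Tcf7l2. Groups without overlap follow the label in the libraries numbered 3 by definition, so these 7 give no check of the labels. The median log2 fold change was 0.11 over the members and -0.005 over all genes tested.

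In the 4 libraries numbered 1 and 2, 78 of 17003 genes (0.459%) were called by the same test, 36 higher (0.212%) and 42 lower (0.247%). These included 2 of 39 members, Sfrp1, which rose, and Sostdc1, which fell. An unadjusted p under 0.05 was seen for 18 of 39 members (46.2%), 9 in each direction, against 11.2% of all genes (6.12% higher and 5.12% lower). Groups did not overlap for 29 of 39 members (74.4%), 18 higher and 11 lower, against 40.6% of all genes (20.4% higher and 20.2% lower). Other tools called more. DESeq2 called 5 members (Nkd1, Sfrp1, Sostdc1, Wnt4 and Wnt5a) against 2.81% of all genes. The exact test called 7, these 5 with Fzd6 and Fzd9, against 3.75% of all genes, and the likelihood-ratio test 7, with Fzd7 in place of Wnt5a, against 3.66%. With no filter on low counts 9 members were called, against 4.77% of all genes, with the replicate number as a block 2, against 0.994%, and with limma-voom 1, Sfrp1, against 0.435%. The median log2 fold change in the 4 libraries was 0.16 over the members and -0.0005 over all genes tested.

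**Figure D2:**
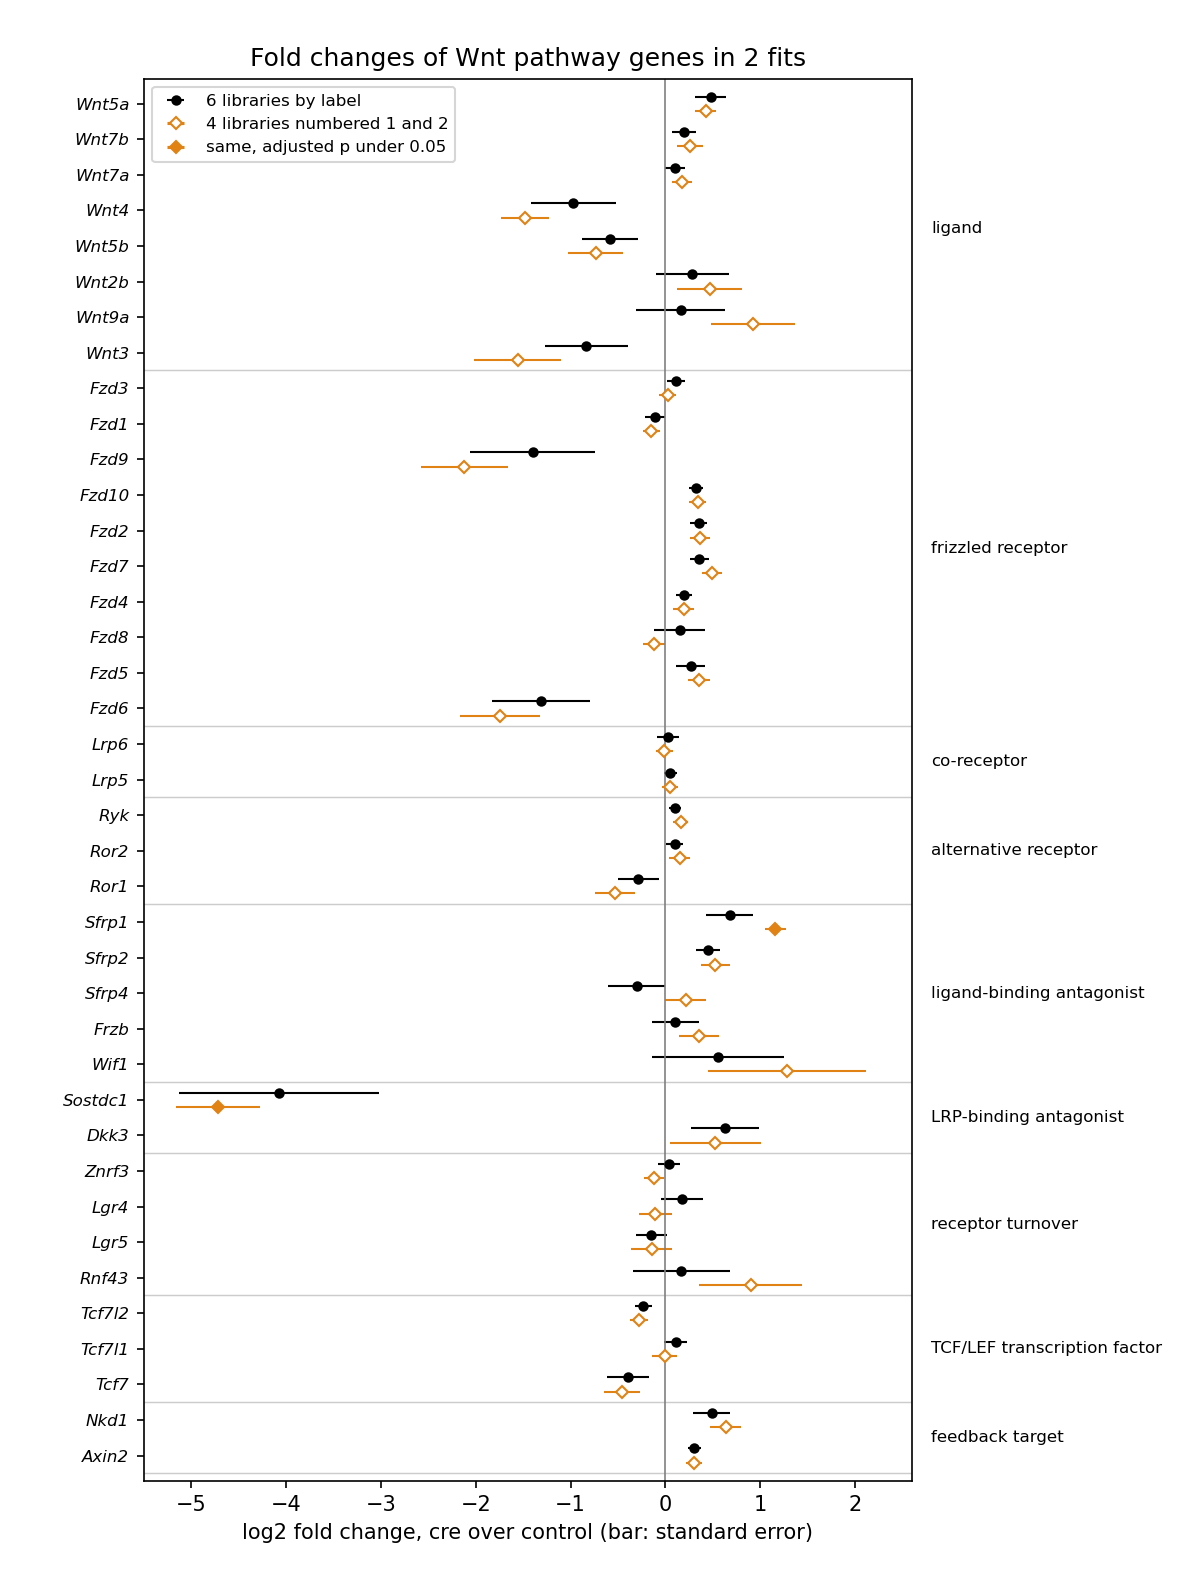
Log2 fold change, cre over control, with its standard error for each tested member by role. Black circles are the fit of 6 libraries by label and orange diamonds the 4 libraries numbered 1 and 2, filled where the adjusted p was under 0.05. Only Sfrp1 (1.16) and Sostdc1 (-4.72) are filled, and Fzd9, Wnt4 and Fzd6 lie well to the left of 0 with open symbols.

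Of the 19 ligands, 8 were tested and none was called in either set of libraries by edgeR's quasi-likelihood test. Wnt5a, a ligand best known for signalling through Ror and Ryk receptors, was at 151, 145 and 120.3 CPM in cre 1 to 3, against 122, 98.5 and 78.6 CPM in control 1 to 3. Only control 1 reached the range of the cre libraries. The log2 fold change was 0.48 ± 0.16 (SE) by the labels, with an adjusted p of 0.917 in edgeR's quasi-likelihood test, while the 4 libraries alone gave 0.42 ± 0.11 with an adjusted p of 0.197. Wnt7b, which acts in the canonical branch, had 89.4, 108 and 104 CPM in cre 1 to 3, against 73.2, 92.4 and 99.3 CPM in control 1 to 3. The groups overlapped, and the log2 fold change was 0.19 ± 0.13 by the labels and 0.26 ± 0.14 in the 4 libraries. Wnt7a lay between 46.8 and 58.1 CPM across all libraries, with a log2 fold change of 0.10.

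Of the scarcer ligands, Wnt4, Wnt5b and Wnt3 had lower values in cre 1 and cre 2 than in control 1 and control 2, but the library labelled control 3 lay below the other controls. For Wnt4 the libraries held 47, 33 and 50 counts in cre 1 to 3, against 112, 113 and 34 counts in control 1 to 3. In CPM this was 1.33, 1.13 and 1.55 in cre 1 to 3, against 3.52, 3.36 and 1.00 in control 1 to 3, so the library labelled control 3 was the lowest of all. The log2 fold change of Wnt4 was -0.97 ± 0.45 by label (adjusted p = 1.00) and -1.48 ± 0.26 in the 4 libraries, where the adjusted p was 0.0859. Wnt5b, close to Wnt5a in sequence, was at 1.36, 1.19 and 1.06 CPM in cre 1 to 3, against 2.32, 1.93 and 1.18 CPM in control 1 to 3. Again only the library labelled control 3 lay within the cre range, and the log2 fold change was -0.59 ± 0.30 by the labels and -0.73 ± 0.29 over the 4 libraries (adjusted p = 0.411). Wnt3, a canonical ligand of the adult hippocampal niche, had 10, 6 and 20 counts in cre 1 to 3, against 22, 26 and 18 counts in control 1 to 3. Here the library labelled cre 3 overlapped the controls, and the log2 fold change was -0.84 ± 0.44 by the labels and -1.56 ± 0.46 over the 4 libraries (adjusted p = 0.256). Wnt2b and Wnt9a stayed between 0.311 and 1.24 CPM, with an unadjusted p above 0.05 in both sets.

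The 10 frizzleds were all tested and none was called by edgeR's quasi-likelihood test, whereas the exact or likelihood-ratio test called Fzd6, Fzd7 and Fzd9 in the 4 libraries. Fzd2 was at 28.0, 32.3 and 32.4 CPM in cre 1 to 3, against 22.7, 24.1 and 25.9 CPM in control 1 to 3. Fzd7 was at 20.4, 21.4 and 17.7 CPM in cre 1 to 3, against 14.9, 14.9 and 16.6 CPM in control 1 to 3. Fzd10 was at 32.8, 35.1 and 34.2 CPM in cre 1 to 3, against 27.6, 26.0 and 28.0 CPM in control 1 to 3. For these 3 receptors every cre library was above every control library. These receptors are grouped here for that lack of overlap, so the libraries numbered 3 follow the label by that choice. Their log2 fold changes by the labels were 0.35 ± 0.09 for Fzd2, 0.36 ± 0.10 for Fzd7 and 0.32 ± 0.07 for Fzd10, and their adjusted p-values in edgeR's quasi-likelihood test were between 0.696 and 0.824. In the 4 libraries the log2 fold changes were 0.36 for Fzd2, 0.49 for Fzd7 and 0.34 for Fzd10, with adjusted p-values between 0.126 and 0.260. Fzd4, which is also the receptor for norrin, had 17.5, 16.2 and 17.3 CPM in cre 1 to 3, against 15.0, 14.5 and 15.0 CPM in control 1 to 3. These groups did not overlap either, but the difference was smaller, with a log2 fold change of 0.20 ± 0.08 (adjusted p = 0.976), and 0.19 ± 0.11 in the 4 libraries.

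Fzd9 and Fzd6 had the widest spread among the frizzleds relative to their level. Fzd9 was at 11.9, 24.1 and 28.2 CPM in cre 1 to 3, against 109.9, 45.4 and 14.0 CPM in control 1 to 3. Control 1 and control 2 were above every cre library, whereas the library labelled control 3 lay inside the cre range. Fzd9 had a log2 fold change of -1.40 ± 0.66 by label (adjusted p = 1.00) and -2.12 ± 0.46 over the 4 libraries (adjusted p = 0.132). Fzd6, a frizzled of planar cell polarity, held 10, 14 and 13 counts in cre 1 to 3, against 39, 44 and 12 counts in control 1 to 3. The same 2 controls were high and the library labelled control 3 was within the cre range. The log2 fold change of Fzd6 was -1.31 ± 0.52 by label (adjusted p = 0.974) and -1.75 ± 0.42 over the 4 libraries (adjusted p = 0.163).

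Fzd5 was at 15.1, 14.8 and 10.7 CPM in cre 1 to 3, against 11.8, 11.6 and 10.3 CPM in control 1 to 3. Here the library labelled cre 3 lay within the control range, and the log2 fold change was 0.26 ± 0.15 by the labels and 0.35 ± 0.11 over the 4 libraries (adjusted p = 0.299). Fzd1 was at 70.8, 62.5 and 59.8 CPM in cre 1 to 3, against 75.1, 72.6 and 60.9 CPM in control 1 to 3. Fzd3 was at 70.9, 82.6 and 77.0 CPM in cre 1 to 3, against 76.3, 74.7 and 62.5 CPM in control 1 to 3. Both overlapped between groups, with log2 fold changes by the labels of -0.11 ± 0.10 for Fzd1 and 0.11 ± 0.10 for Fzd3, and in the 4 libraries of -0.15 ± 0.09 for Fzd1 and 0.02 ± 0.09 for Fzd3. Fzd8 lay between 7.83 and 17.6 CPM, with a log2 fold change of 0.15 ± 0.27 by the labels and -0.12 ± 0.11 in the 4 libraries.

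The co-receptors differed little between groups. Lrp5 was at 41.8, 45.1 and 41.2 CPM in cre 1 to 3, against 42.1, 41.9 and 39.7 CPM in control 1 to 3. Lrp6 was at 90.6, 103 and 83.0 CPM in cre 1 to 3, against 95.8, 99.5 and 76.8 CPM in control 1 to 3. The groups overlapped for both, and the log2 fold changes by the labels were 0.05 ± 0.07 for Lrp5 and 0.03 ± 0.12 for Lrp6, while the 4 libraries gave 0.05 ± 0.08 for Lrp5 and -0.01 ± 0.09 for Lrp6. Among the alternative receptors, Ryk, an atypical kinase-like receptor, had 152, 149 and 143 CPM in cre 1 to 3, against 139, 130.0 and 145 CPM in control 1 to 3. Ror2 had 19.9, 22.5 and 21.1 CPM in cre 1 to 3, against 19.4, 18.7 and 21.2 CPM in control 1 to 3. Both overlapped between groups, with log2 fold changes of 0.10 by the labels, and in the 4 libraries of 0.16 ± 0.08 for Ryk and 0.15 ± 0.11 for Ror2. Ror1 had 2.83, 3.28 and 3.48 CPM in cre 1 to 3, against 4.21, 4.57 and 2.89 CPM in control 1 to 3. The library labelled control 3 again lay among the cre libraries, and the log2 fold change was -0.29 ± 0.22 by the labels and -0.53 ± 0.21 over the 4 libraries (adjusted p = 0.417).

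Both members that edgeR's quasi-likelihood test called in the 4 libraries were secreted antagonists. Sostdc1, which binds Lrp co-receptors and also bone morphogenetic proteins, lies at chr12:36314139-36318452 (GRCm38, plus strand). It had 15, 26 and 24 counts in cre 1 to 3, against 713, 387 and 25 counts in control 1 to 3. As CPM this was 0.424, 0.887 and 0.746 in cre 1 to 3, against 22.4, 11.5 and 0.738 in control 1 to 3. The gene was high only in control 1 and control 2, and the library labelled control 3 lay inside the cre range. The library labelled cre 3, where Tet3 was high, also held a low level of Sostdc1. In the 4 libraries it fell by 4.72 ± 0.45 on the log2 scale, with an adjusted p of 0.0159 in edgeR's quasi-likelihood test but 0.0752 in limma-voom. By the labels the log2 fold change was -4.08 ± 1.05 and the adjusted p 0.787 in that test, 0.0741 in DESeq2, 5.37e-04 in the exact test and 0.0184 in the likelihood-ratio test. Leaving out 1 of the 6 libraries at a time gave -4.64 to -3.16. The value of -4.64 came without the library labelled control 3, the control in which Sostdc1 was low. There the adjusted p in edgeR's quasi-likelihood test was 0.0181, in a fit that called 18 of 17152 genes (0.105%).

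Sfrp1, a secreted protein with a frizzled-like domain that binds Wnts, lies at chr8:23411502-23449632 (GRCm38, plus strand). It was at 28.7, 26.4 and 20.0 CPM in cre 1 to 3, against 12.7, 12.03 and 22.4 CPM in control 1 to 3. Control 1 and control 2 were low, and the library labelled control 3 was above the library labelled cre 3. Over the 4 libraries it rose by a log2 fold change of 1.16 ± 0.11, with an adjusted p of 0.0159 in edgeR's quasi-likelihood test. By the labels it was 0.68 ± 0.25 with an adjusted p of 0.974. Leaving out 1 of the 6 libraries at a time gave 0.52 to 1.02. The value of 1.02 came without the library labelled control 3, with an adjusted p of 0.0941. Sfrp2, of the same family, had 14.7, 11.9 and 13.8 CPM in cre 1 to 3, against 8.86, 9.65 and 11.0 CPM in control 1 to 3. Unlike Sfrp1, its groups did not overlap in all 6 libraries. Its log2 fold change was 0.45 ± 0.13 by label (adjusted p = 0.824) and 0.52 ± 0.15 over the 4 libraries (adjusted p = 0.251). Of the Sfrp2 exon bases, 16.1% are shared with an antisense gene, and the strand setting of the counting is not given in the sources used here.

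The other antagonists were scarce or mixed. Sfrp4 lay between 4.04 and 9.22 CPM, Frzb between 3.45 and 6.61 CPM and Wif1 between 0.0314 and 0.738 CPM, each with an unadjusted p above 0.05 in both sets. The sign for Sfrp4 turned, with a log2 fold change of -0.30 ± 0.30 by the labels and 0.21 ± 0.22 in the 4 libraries. Dkk3, a divergent member of the Dickkopf family, had 0.791, 0.478 and 0.963 CPM in cre 1 to 3, against 0.534, 0.356 and 0.561 CPM in control 1 to 3. The groups overlapped, and Dkk3 had a log2 fold change of 0.62 ± 0.36 by label and 0.52 ± 0.48 in the 4 libraries. Dkk1, Dkk2, Dkk4 and Sfrp5 were too scarce to test.

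**Figure D3:**
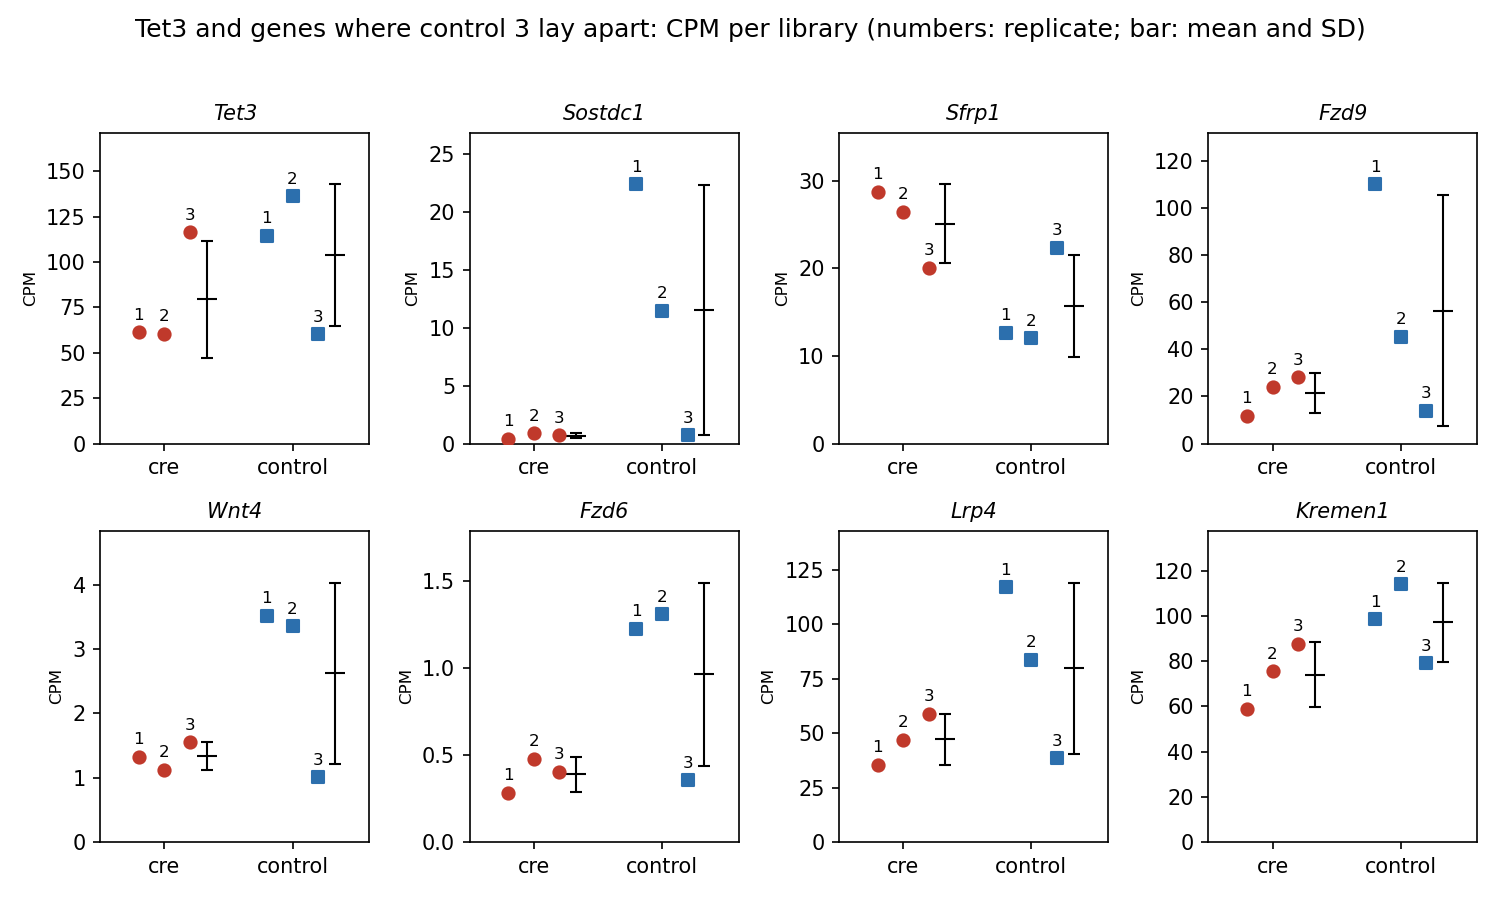
Level in each library, in CPM from 0, of Tet3, 5 members and 2 other pathway genes, chosen after their values were seen. Points are numbered by replicate, red circles are cre, blue squares are control, and bars are the mean and SD of 3. The library labelled control 3 lies below control 1 and control 2 in every panel but that of Sfrp1, where it lies above them, and for Sostdc1 it stands at 0.738 CPM against 22.4 and 11.5 CPM. The library labelled cre 3, where Tet3 is high, lies below control 1 and control 2 for Sostdc1, Fzd9, Fzd6, Wnt4, Lrp4 and Kremen1.

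Receptor turnover genes include the ubiquitin ligases Znrf3 and Rnf43, which remove frizzleds from the cell surface, and Lgr4 and Lgr5, receptors for the R-spondins that counter them. Znrf3 was at 37.9, 45.6 and 49.7 CPM in cre 1 to 3, against 44.4, 46.1 and 38.8 CPM in control 1 to 3. Lgr4 was at 17.0, 24.7 and 24.2 CPM in cre 1 to 3, against 22.7, 22.1 and 13.6 CPM in control 1 to 3. Both overlapped, with log2 fold changes of 0.04 ± 0.12 for Znrf3 and 0.17 ± 0.22 for Lgr4 by the labels, while the sign turned in the 4 libraries, at -0.12 ± 0.11 for Znrf3 and -0.11 ± 0.17 for Lgr4. Lgr5 lay between 12.04 and 19.3 CPM and Rnf43 between 0.356 and 1.06 CPM.

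The TCF/LEF factors bind DNA and recruit beta-catenin. Lef1, itself also a target of the pathway, had 1, 2 and 1 counts in cre 1 to 3, against 5, 2 and 0 counts in control 1 to 3. It was too scarce to test. Tcf7l2 was at 24.8, 23.2 and 28.1 CPM in cre 1 to 3, against 29.4, 28.8 and 31.2 CPM in control 1 to 3. It was the only tested member with every cre library below every control library. The difference was a log2 fold change of -0.23 ± 0.09 by label (adjusted p = 0.974) and -0.28 ± 0.09 over the 4 libraries (adjusted p = 0.315). Tcf7 was at 5.45, 4.78 and 3.98 CPM in cre 1 to 3, against 7.73, 6.33 and 4.67 CPM in control 1 to 3. The library labelled control 3 overlapped the cre range, and the log2 fold change was -0.40 ± 0.22 by the labels and -0.46 ± 0.19 over the 4 libraries (adjusted p = 0.429). Tcf7l1, mostly a repressor of targets, was at 18.0, 20.9 and 23.9 CPM in cre 1 to 3, against 18.0, 21.1 and 19.2 CPM in control 1 to 3, with overlap and a log2 fold change of 0.11 ± 0.12 by the labels and -0.01 ± 0.13 in the 4 libraries.

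The feedback targets Axin2 and Nkd1 are among the outputs of the canonical branch. Axin2 encodes a scaffold of the complex that degrades beta-catenin and lies at chr11:108920349-108950783 (GRCm38, plus strand). Nkd1 encodes a protein that binds Dishevelled and lies at chr8:88521354-88594884 (GRCm38, plus strand). Their promoter windows in RefSeq (GRCm38.p6, 250 bases before and 50 after the annotated start) are printed because these are the members nearest to a readout of the pathway, with each CpG in capitals. The Axin2 window is chr11:108920099-108920398 and the Nkd1 window chr8:88527383-88527682, both on the plus strand, and the Nkd1 window begins inside the gene as placed above.
Axin2: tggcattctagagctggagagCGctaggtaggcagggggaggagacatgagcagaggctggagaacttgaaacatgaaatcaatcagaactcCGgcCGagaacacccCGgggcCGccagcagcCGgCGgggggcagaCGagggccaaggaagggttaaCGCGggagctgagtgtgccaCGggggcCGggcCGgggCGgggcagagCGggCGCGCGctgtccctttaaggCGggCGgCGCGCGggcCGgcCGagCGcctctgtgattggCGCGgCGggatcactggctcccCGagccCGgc
Nkd1: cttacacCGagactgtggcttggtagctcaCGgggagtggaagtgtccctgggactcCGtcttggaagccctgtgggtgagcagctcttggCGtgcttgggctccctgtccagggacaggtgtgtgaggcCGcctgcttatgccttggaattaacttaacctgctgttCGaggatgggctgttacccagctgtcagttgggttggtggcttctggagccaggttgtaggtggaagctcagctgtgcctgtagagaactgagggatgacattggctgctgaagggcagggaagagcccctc
The Axin2 window held 31 CpG sites at 70.0% GC, more CpG sites than 89.4% of the 32851 promoter windows. The Nkd1 window held 6 at 58.3% GC, more than 43.6%, where the median window has 7 at 52.7% GC. Neither contained the TCF/LEF motif CTTTGAT on either strand, nor its variants ending otherwise, which are CTTTGAA, the form CTTTGTA and the form CTTTGTT. RefSeq windows were found for 38 members, 47 windows in all, and 7 of the 47 (14.9%) held such a motif, against 5544 of all 32851 (16.9%). Those were windows of Fzd7, Lef1, Wnt5b, Wnt11, Wnt3, Dkk1 and Tcf7l2.

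Axin2 was at 38.0, 38.0 and 39.5 CPM in cre 1 to 3, against 30.2, 31.4 and 31.9 CPM in control 1 to 3. The groups were tight and did not overlap, with means of 38.5 ± 0.861 CPM in cre libraries and 31.2 ± 0.862 CPM in control libraries (SD, n = 3 each). The log2 fold change was 0.30 ± 0.07 by label (adjusted p = 0.685 in edgeR's quasi-likelihood test) and 0.30 ± 0.08 over the 4 libraries (adjusted p = 0.224). Of its exon bases, 3.8% are shared with an antisense gene. Nkd1 was at 39.6, 45.2 and 48.6 CPM in cre 1 to 3, against 22.6, 31.9 and 40.6 CPM in control 1 to 3. The library labelled control 3 was just above cre 1, so the groups overlapped. For Nkd1 the log2 fold change was 0.49 ± 0.20 with the labels as given (adjusted p = 0.974) and 0.63 ± 0.17 over the 4 libraries (adjusted p = 0.194). Neither target was called in either set by this test. Over the 4 libraries DESeq2 called Nkd1 but not Axin2. Outside the members, the pathway targets Ccnd1, Myc and Tnfrsf19 had log2 fold changes of 0.02, -0.03 and 0.01 by the labels. In the 4 libraries these were 0.15 for Ccnd1, 0.05 for Myc and -0.08 for Tnfrsf19. All 3 had an unadjusted p above 0.05 in both sets.

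**Figure D4:**
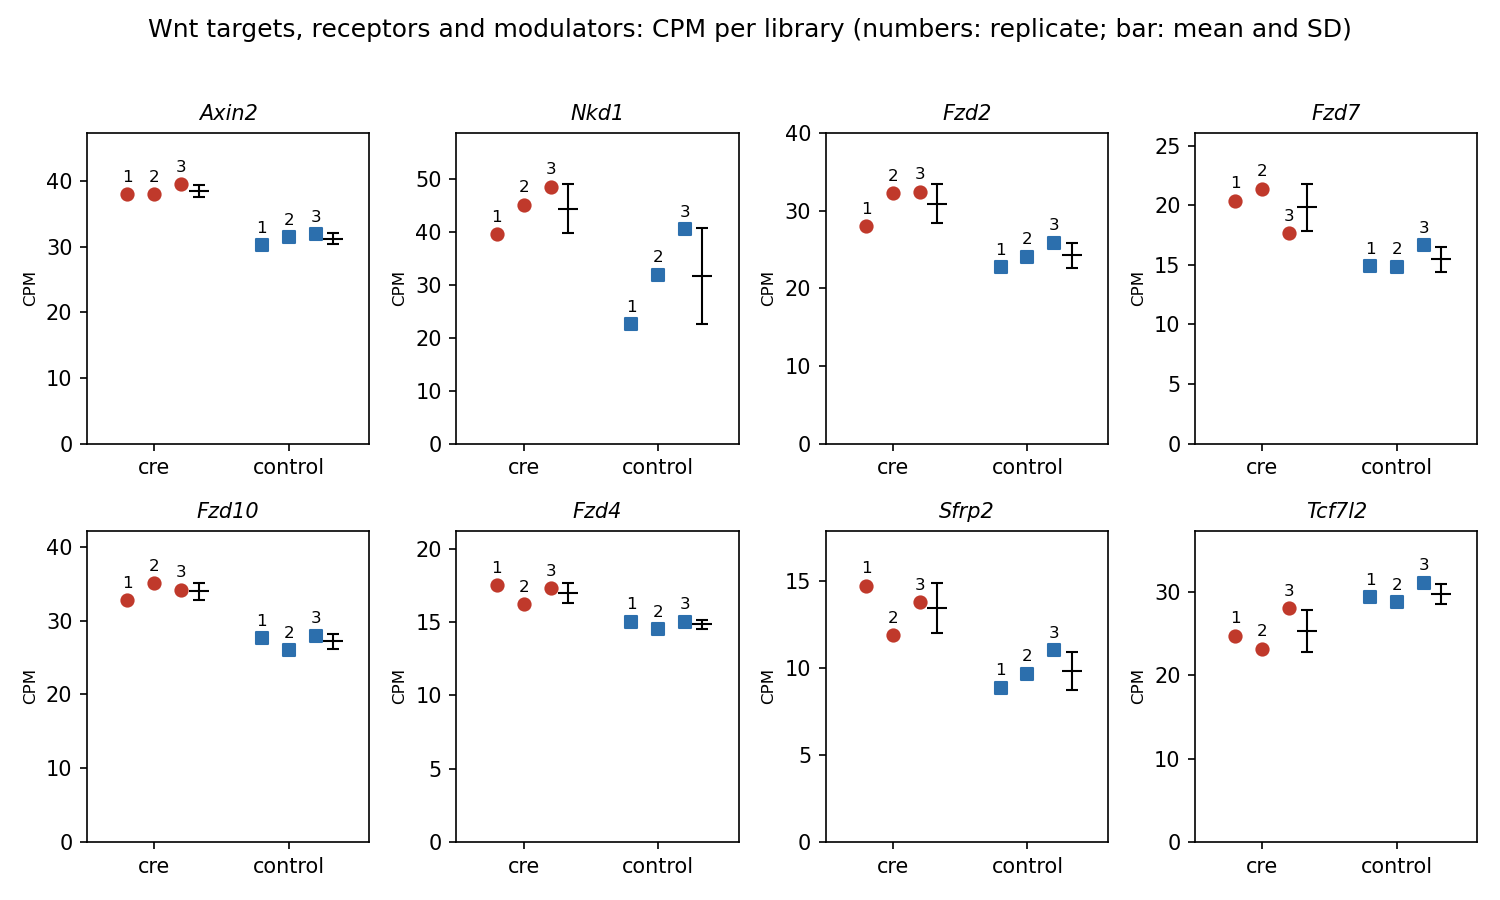
Level in each library, in CPM from 0, of the 7 members whose groups did not overlap by label and of Nkd1, chosen after their values were seen. Points are numbered by replicate, red circles are cre, blue squares are control, and bars are the mean and SD of 3. Axin2 runs from 38.0 to 39.5 CPM in cre libraries and 30.2 to 31.9 CPM in control libraries, while for Nkd1 control 3 (40.6 CPM) lies above cre 1 (39.6 CPM).

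The 16 members that were not tested were Wnt1, Wnt2, Wnt3a, Wnt6, Wnt8a, Wnt8b, Wnt9b, Wnt10a, Wnt10b, Wnt11, Wnt16, Sfrp5, Dkk1, Dkk2, Dkk4 and Lef1. Wnt1, Wnt8a and Wnt10b had no count in any library, where 3 counts in a library correspond to 0.0848 to 0.102 CPM. None of the other 13 exceeded 0.452 CPM, the value of Sfrp5 in cre 1, or 24 counts over the 6 libraries. For 8 of these 13 the highest level was in cre 1, the deepest library and that with the highest meningeal and microglial marker sums. For Wnt3a, Wnt9b, Wnt10a and Wnt16 this level was 1 or 2 counts. The part of depth or of those cells in these low counts was not tested.

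A list of 70 other pathway genes, from ligand secretion to the destruction complex, nuclear partners and planar polarity, gave 57 tested genes by the labels and 58 in the 4 libraries. None was called in either set by edgeR's quasi-likelihood test, whereas DESeq2, the exact test and the likelihood-ratio test each called 3 in the 4 libraries, Celsr1, Kremen1 and Lrp4, and 0 by label. An unadjusted p under 0.05 was seen for 2 of 57 (3.51%) by the labels and for 7 of 58 (12.1%) in the 4 libraries, of which 1 was higher and 6 lower. The 10 destruction complex genes, Apc, Axin1 and Gsk3b among them, had log2 fold changes from -0.07 to 0.11 by the labels, none with an unadjusted p under 0.05 in either set. Of the 14 nuclear partners none had an unadjusted p under 0.05 by the labels, and their log2 fold changes ran from -0.19 to 0.20. In the 4 libraries 3 of the 14 (21.4%) had such a p, 1 higher and 2 lower, against 11.2% of all genes. Their log2 fold changes there ran from -0.31 to 0.30.

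The other pathway gene nearest to the threshold was Lrp4, a receptor for agrin and sclerostin. It was at 35.5, 47.0 and 58.8 CPM in cre 1 to 3, against 117, 83.7 and 38.4 CPM in control 1 to 3. Its pattern was that of Fzd9, with control 1 and control 2 high and the library labelled control 3 within the cre range. The log2 fold change was -0.76 ± 0.37 by the labels and -1.29 ± 0.19 in the 4 libraries, with an adjusted p of 0.0531. Kremen1, a receptor for Dickkopf proteins, had 58.9, 75.7 and 87.9 CPM in cre 1 to 3, against 98.6, 114 and 79.2 CPM in control 1 to 3. Celsr1, a planar polarity cadherin, had 7.60, 7.58 and 6.34 CPM in cre 1 to 3, against 14.8, 11.5 and 5.14 CPM in control 1 to 3. In both, control 1 and control 2 were high and the library labelled control 3 lay below at least 1 cre library. Their log2 fold changes in the 4 libraries were -0.66 ± 0.13 for Kremen1 (adjusted p = 0.112) and -0.80 ± 0.16 for Celsr1 (adjusted p = 0.115). By the labels these were -0.39 ± 0.17 for Kremen1 and -0.55 ± 0.34 for Celsr1. Ctnnbip1, which blocks the binding of beta-catenin to TCF factors, had 22.8, 22.6 and 30.6 CPM in cre 1 to 3, against 27.5, 28.8 and 28.5 CPM in control 1 to 3. Here the library labelled cre 3 was the highest of all 6, and the log2 fold change was -0.16 ± 0.13 by the labels and -0.31 ± 0.09 over the 4 libraries (adjusted p = 0.262).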

How the data were processed

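RNA-seq libraries were prepared with a stranded mRNA kit from 3 Tet3-Gfap cre and 3 Tet3-Gfap control neurosphere samples. The deposited counts are whole read counts per gene, made by the authors with Subread on GRCm38.p5 and an Ensembl annotation, and not normalized. Columns holding the authors' own comparisons were not used, and 0 per-sample columns were left unmapped. Ensembl IDs were paired with symbols and exon lengths through the annotation given for the build, and 345 genes had no symbol. Counts were fitted with edgeR 4.0.16 in R 4.3.3, with limma 3.58.1, TMM factors, filterByExpr, a quasi-likelihood test and Benjamini-Hochberg adjustment over all genes tested at 0.05. DESeq2 1.42.0, limma-voom, edgeR's exact and likelihood-ratio tests, other normalizations and filters, a replicate block and leaving out libraries were alternatives. The steps were tested on simulated data. The members and lists were chosen with earlier results of these data known. Values in every library are given for members past an adjusted or unadjusted threshold in either set of libraries, the 2 most abundant of each role, and Axin2, Lef1, Nkd1 and Tcf7. Of the other pathway genes, the 4 with the smallest p are given. The labels do not say that the 3 libraries of a group are separate cultures, so p-values measure only the spread between them, which may be technical. The CPM given for 3 counts is a limit of counting only.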

Additional observations from a re-analysis of the deposited data

How the results depend on the processing

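By the labels, 0 genes and 0 members were called by edgeR's quasi-likelihood test. DESeq2 called 70 genes, the exact test 68 and the likelihood-ratio test 51, and 3 were called with no filter on low counts. The exact and likelihood-ratio tests called 1 member each, and leaving out both libraries numbered 3 gave 78 genes and 2 members. Leaving out 1 library at a time gave 0 to 18 genes and 0 to 1 member, the 18 genes and Sostdc1 without the library labelled control 3. In the 4 libraries numbered 1 and 2, 78 genes and 2 members became 478 and 5 under DESeq2. They became 638 and 7 under the exact test, 622 and 7 under likelihood ratios and 1325 and 9 without a filter. Limma-voom called 1 member there, Sfrp1, and gave Sostdc1 an adjusted p of 0.0752. Leaving out 1 of the 4 gave 59 to 297 genes, 2 to 4 members and 0 to 2 other pathway genes, with one group then a single library assumed to vary like the other. Without control 2, 246 genes were called, Fzd9 and Nkd1 among them, and without cre 2, 297. The 3 other pathway genes Celsr1, Kremen1 and Lrp4 were called by DESeq2, the exact and likelihood-ratio tests and with no filter. The causes of these changes were not tested.

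Groups shared replicate numbers, and the correlation of deviations between libraries of the same number was -0.09, 0.01 and -0.02. Between libraries of different numbers it was -0.06 to 0.08. Whether libraries of the same number shared a batch or culture was not tested. With the replicate block, 0 genes were called by the labels, and 169 genes, 2 members and 2 other pathway genes (Kremen1 and Lrp4) in the 4 libraries. Some log2 fold changes turned their sign, none of them called. Without both libraries numbered 3 they were -0.11 for Lgr4, -0.0117 for Lrp6, -0.0093 for Tcf7l1 and -0.12 for Znrf3, where Sfrp4 and Fzd8 also turned, to 0.21 and -0.12, against -0.30 and 0.15 with all 6. Leaving out 1 of 6 gave -0.0315 to 0.33 for Lgr4, -0.0833 to 0.10 for Lrp6, -0.0007 to 0.21 for Tcf7l1 and -0.0491 to 0.15 for Znrf3. Leaving out 1 of the 4 gave -0.0936 to 0.13 for Fzd3, -0.40 to 0.14 for Lgr4, -0.0084 to 0.10 for Lrp5, -0.11 to 0.0779 for Lrp6, -0.12 to 0.10 for Tcf7l1 and -0.26 to 0.0091 for Znrf3. No named gene turned its sign under another normalization or filter. Members under about 1 CPM rest on few counts, which limits what a difference between them can show.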
